A study of Mus musculus with 3 samples.

Results

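The genes described here are 7 regulators of G protein signalling, Rgs1, Rgs2, Rgs3, Rgs10, Rgs14, Rgs16 and Rgs19, read by 16 of the 45101 probe sets of the array and making up 7 of 18194 named genes. A probe set belongs to a member where the annotation of the platform gives that gene alone, with older symbols matched through the Entrez identifier. This matters here, because Rgs14 is also an older name of Rgs16. The 7 genes were chosen by their signals on these same 3 arrays, so all their levels and differences are descriptions, and no test supports them.

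The study profiled CD8 T cells of mice on 1 Affymetrix array per population, 3 in all, with the mesenteric lymph node as tissue (labelled MLN). The CL4-TCR array holds cells with a transgenic T cell receptor that sees hemagglutinin (HA) of influenza virus, and no HA gene is named for it. The array VILLIN-HA/CL4-TCR, like the array Villin-HA + CL4-TCR, names the same receptor together with HA under the villin promoter, which is active in gut epithelium. The submitters speak of an unmanipulated, an activated and a regulatory population, the last pair arising in the animal, without saying which HA array is which. The receptor transgene is shared by all 3 groups, while the sources used here do not give mouse strain, age, sex, number of animals, pooling or sorting gate.

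RGS proteins end signals of G protein-coupled receptors. A receptor that has bound its ligand loads the alpha subunit of a G protein with GTP, and the RGS domain speeds up the hydrolysis of that GTP, which returns the alpha subunit to its resting state. In T cells the receptors concerned include those for chemokines and sphingosine-1-phosphate, so RGS proteins tune migration into, through and out of lymphoid and mucosal tissue.

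Rgs1, Rgs2 and Rgs16, the members with the widest ranges, all lie on mouse chromosome 1. In the order of the GRCm38.p6 RefSeq table, Rgs2, Rgs13, Rgs1, Rgs21 and Rgs18 follow each other with no other protein-coding gene between them, and Rgs8 is the next protein-coding gene on 1 side of Rgs16. Promoter windows were found for 5 of the 7 members, 8 windows in all, and those of Rgs2 and Rgs16 are shown because these genes differed in opposite directions between the HA arrays. Each is the stretch of 250 bases before the annotated start, from RefSeq, build GRCm38.p6, at chr1:144004150-144004399 on the minus strand for Rgs2 and chr1:153740103-153740352 on the plus strand for Rgs16. Capitals mark the letters CGTCA or their reverse complement TGACG, the core of the cAMP response element.
Rgs2: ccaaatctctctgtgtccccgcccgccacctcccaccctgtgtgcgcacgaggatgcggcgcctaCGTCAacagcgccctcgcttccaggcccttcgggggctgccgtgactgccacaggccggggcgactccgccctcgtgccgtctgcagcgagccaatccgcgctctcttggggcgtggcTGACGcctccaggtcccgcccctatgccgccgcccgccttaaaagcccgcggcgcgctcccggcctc
Rgs16: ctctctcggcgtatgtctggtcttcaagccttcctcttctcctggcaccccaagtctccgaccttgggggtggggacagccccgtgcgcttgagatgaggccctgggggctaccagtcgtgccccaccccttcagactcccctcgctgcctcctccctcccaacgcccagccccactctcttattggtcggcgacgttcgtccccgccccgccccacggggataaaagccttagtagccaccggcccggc

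The Rgs2 window held CGTCA or TGACG 2 times, starting 185 and 67 bases before the annotated start, and the Rgs16 window did not hold it. Over 32851 such windows in the table, 17.8% held it on either strand. Both windows held 1 CCAAT box (CCAAT or ATTGG), which 33.8% of windows held. The full element TGACGTCA (1.55% of windows), the AP-1 letters TGANTCA (6.75%) and the NFAT core GGAAA or TTTCC (55.6%) were in neither. These are matches of letters, and factor binding was not measured.

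The values are MAS5 signals on a linear scale, scaled so that the mean of each array without its 2% highest and lowest values is 150. A floor of 31.7, the median of all values, was set, and lower values were raised to it before differences were taken. A gene counts as higher or lower in a comparison at 2-fold or more, provided that its higher value lies above the floor. Against a value at the floor, the true fold can be larger, and "at least" stands before it. Each group has a single array and hence no replicate spread, so each difference is one between arrays, and the disagreement between probe sets of 1 gene is the only error that could be measured. Its pooled SD was 0.43 on the log2 scale between VILLIN-HA/CL4-TCR and the CL4-TCR array, 0.65 between Villin-HA + CL4-TCR and that array, and 0.61 between the HA arrays.

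By the brightest probe set of each, all 7 genes of a CD8 T cell list that have one lay above the floor on each array. None of them was counted in any comparison, and Cd4 was below the floor on all 3 arrays. Another probe set of Cd8a read 212.7 on CL4-TCR, 203.6 on VILLIN-HA/CL4-TCR and 856.7 on Villin-HA + CL4-TCR. The arrays differed in 1 of 2 control ratios of RNA integrity and in sex-linked transcripts. The ratio of the 3′ to the 5′ Gapdh control probe set was 18.4 for CL4-TCR, 46.2 for VILLIN-HA/CL4-TCR and 3.35 for Villin-HA + CL4-TCR, while that of beta-actin was 1.98, 2.46 and 1.80 in that order. Xist, expressed in female cells, had signals of 5442.5, 2.5 and 1339, and the Y-linked Eif2s3y had 13.4, 1496 and 746.9. The part of either in the RGS values was not tested, and both cannot be told apart from the group. In such bulk RNA, fewer cells of a type and less RNA per cell cannot be told apart either.

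Across the family, the members split by array. By the brightest probe set of each gene, Rgs1 and Rgs2 were highest on Villin-HA + CL4-TCR, Rgs16, Rgs10 and Rgs3 on VILLIN-HA/CL4-TCR, and Rgs14 and Rgs19 on CL4-TCR. Against CL4-TCR, VILLIN-HA/CL4-TCR had 2 of 7 members higher (Rgs1 and Rgs16) and 2 lower (Rgs2 and Rgs14), beside 7.43% of 11260 measured genes higher and 6.63% lower. For Villin-HA + CL4-TCR, 3 members were higher (Rgs1, Rgs2 and Rgs16) and none lower, where 11.9% of 12196 measured genes were higher and 9.53% lower. Between the HA arrays, Rgs1 and Rgs2 were higher and Rgs10 and Rgs16 lower on Villin-HA + CL4-TCR, where 8.95% of 12081 measured genes were higher and 6.14% lower. Nothing is read from these shares, since the same contrasts chose the members, and both comparisons with CL4-TCR use its 1 array. Rgs16 was measured against CL4-TCR through the HA arrays alone.

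**Figure D1:**
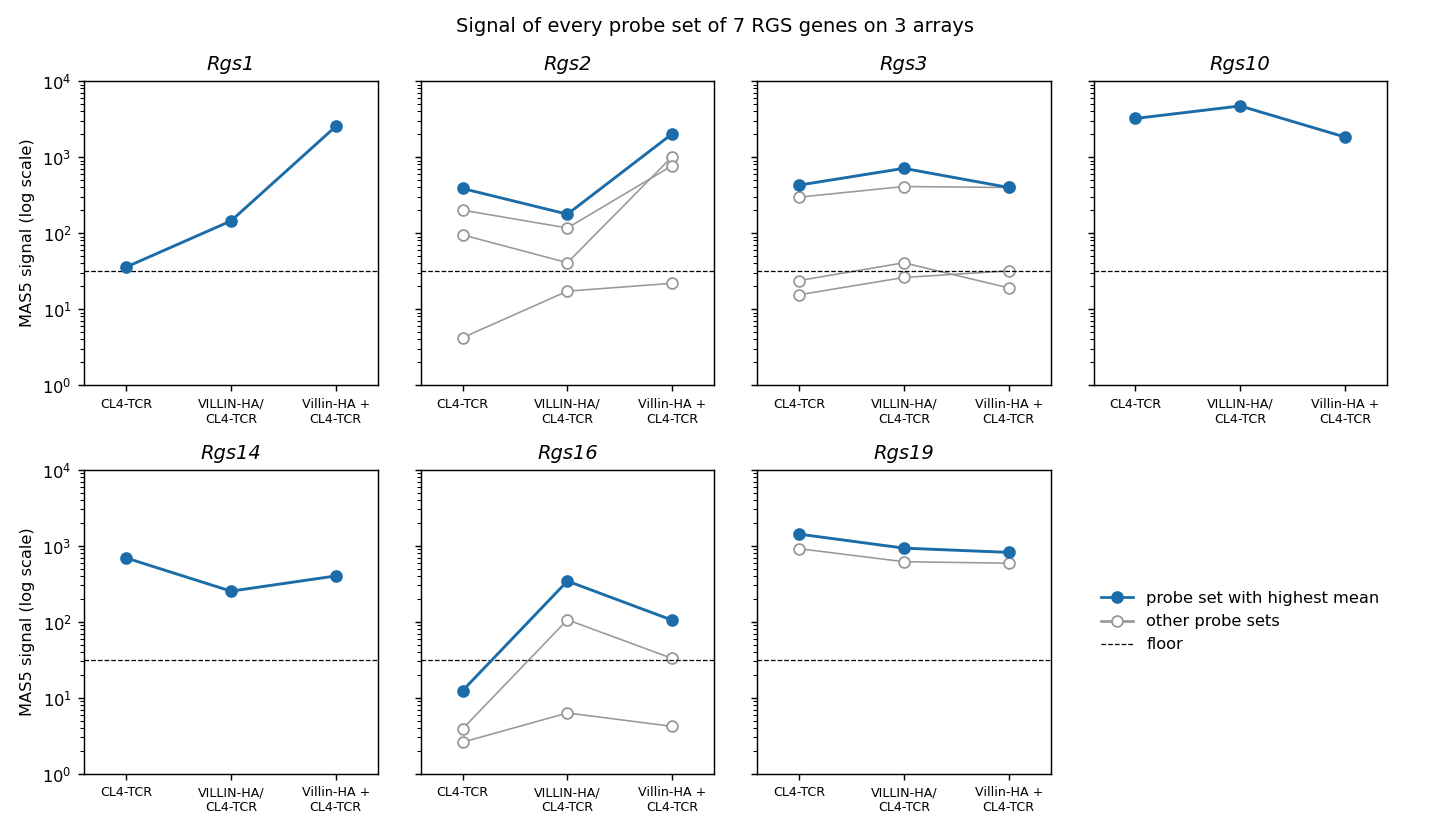
MAS5 signal (log axis) of each of the 16 probe sets of the 7 RGS genes on arrays CL4-TCR, VILLIN-HA/CL4-TCR and, at the right, Villin-HA + CL4-TCR. Filled points are the probe set with the highest mean signal of a gene, open points its other probe sets, lines join the values of 1 probe set, and the dashed line is the floor of 31.7. By the filled points, Rgs1 ranges from 35.7 to 2526.1, while Rgs19 stays between 817.4 and 1421.9.

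Rgs1, Rgs2, Rgs3 and Rgs16 belong to the R4 subfamily, most of whose members are small proteins with little beside the RGS domain. Rgs1 limits the response of lymphocytes to chemokines and is abundant in T cells that reside in tissue. Its single probe set, 1417601_at, read 35.7 for CL4-TCR, 144.3 for VILLIN-HA/CL4-TCR and 2526.1 for Villin-HA + CL4-TCR. The lowest value lies just above the floor, and the steps between the arrays are both beyond 2-fold. Rgs1 was thus 4.04-fold higher on VILLIN-HA/CL4-TCR and 70.8-fold higher on Villin-HA + CL4-TCR than on CL4-TCR, and 17.5-fold higher on the latter HA array than on the former. From the highest difference down, it took rank 8 of 12196 for Villin-HA + CL4-TCR minus CL4-TCR, against rank 227 of 11260 for VILLIN-HA/CL4-TCR minus CL4-TCR. Since no other probe set reads Rgs1, disagreement between probe sets is unknown for it. With the floor at 68.6, the 65th percentile of all values, the log2 differences were at least 1.07 and at least 5.20 in place of 2.02 and 6.14.

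Rgs2 acts mainly on G alpha q and is induced quickly when lymphocytes are stimulated. Its brightest probe set, 1419248_at, had signals of 385.6 on CL4-TCR, 177 on VILLIN-HA/CL4-TCR and 2019.5 on Villin-HA + CL4-TCR. Another read 200.1, 116.5 and 770.1 in the same order, and one more read 94.6, 40.7 and 1013.4. All 3 have the same order of arrays, lowest on VILLIN-HA/CL4-TCR and highest on Villin-HA + CL4-TCR. The remaining probe set lay below the floor on every array, with signals from 4.2 to 21.8. By the brightest, Rgs2 was 5.24-fold higher on Villin-HA + CL4-TCR and 2.18-fold lower on VILLIN-HA/CL4-TCR than on CL4-TCR. The 3 probe sets above the floor ranged from 1.94 to 3.42 and from -1.22 to -0.78 on the log2 scale in these comparisons, so the count as lower rests on the choice of probe set. With the median of all probe sets, that difference was -0.999, just short of 2-fold. Between the HA arrays Rgs2 was 11.4-fold higher on Villin-HA + CL4-TCR, with log2 differences of 2.72 to 4.64 by probe set and rank 30 of 12081. Rgs1 had rank 14 there.

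The other genes of the Rgs2 to Rgs18 stretch that the array reads were below the floor throughout. Rgs13, a gene of germinal centre B cells, had signals from 0.9 to 12.5, and Rgs18, a gene of platelets and myeloid cells, had 6.3, 21.5 and 9.7 by its brighter probe set. Of the 4 genes of the stretch with a probe set, Rgs1 and Rgs2 were the ones above the floor. Nothing is read from this, since the members were chosen by these same signals.

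Rgs16 acts on G alpha i and G alpha q and is induced in activated T cells. Its brightest probe set, 1455265_a_at, had a signal of 12.4 on CL4-TCR, below the floor, 342.8 on VILLIN-HA/CL4-TCR and 104.8 on Villin-HA + CL4-TCR. Another gave 3.9, 106 and 32.9, and the last stayed below the floor with 2.6, 6.3 and 4.2. Both probe sets that reached the floor were higher on VILLIN-HA/CL4-TCR than on the other HA array, the reverse of Rgs2. Rgs16 was at least 10.8-fold higher on VILLIN-HA/CL4-TCR and at least 3.31-fold higher on Villin-HA + CL4-TCR than on CL4-TCR. Between the HA arrays, where both values are measured, it was 3.27-fold lower on Villin-HA + CL4-TCR, and the next brightest probe set had a log2 difference of -1.69 against -1.71. For VILLIN-HA/CL4-TCR the log2 difference from CL4-TCR was at least 3.43, at least 2.32 with the higher floor and at least 1.74 with the median of all probe sets. The count against CL4-TCR for Villin-HA + CL4-TCR ended with the higher floor (a log2 difference of at least 0.61) and with the median of all probe sets (at least 0.05).

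Rgs3 acts on G alpha i and G alpha q. The brightest of its 4 probe sets, 1449516_a_at, read 427.1 on CL4-TCR, 709.8 on VILLIN-HA/CL4-TCR and 397.6 on Villin-HA + CL4-TCR, and a second read 296.6, 409.3 and 397.4. Both were highest on VILLIN-HA/CL4-TCR, and they differed in which array was lowest. The remaining pair lay near or below the floor, from 15.4 to 40.6. No difference of Rgs3 reached 2-fold: the log2 values of the brightest were 0.73 and -0.10 for the HA arrays against CL4-TCR in the same order, and -0.84 between the HA arrays, where the second probe set had -0.04.

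**Figure D2:**
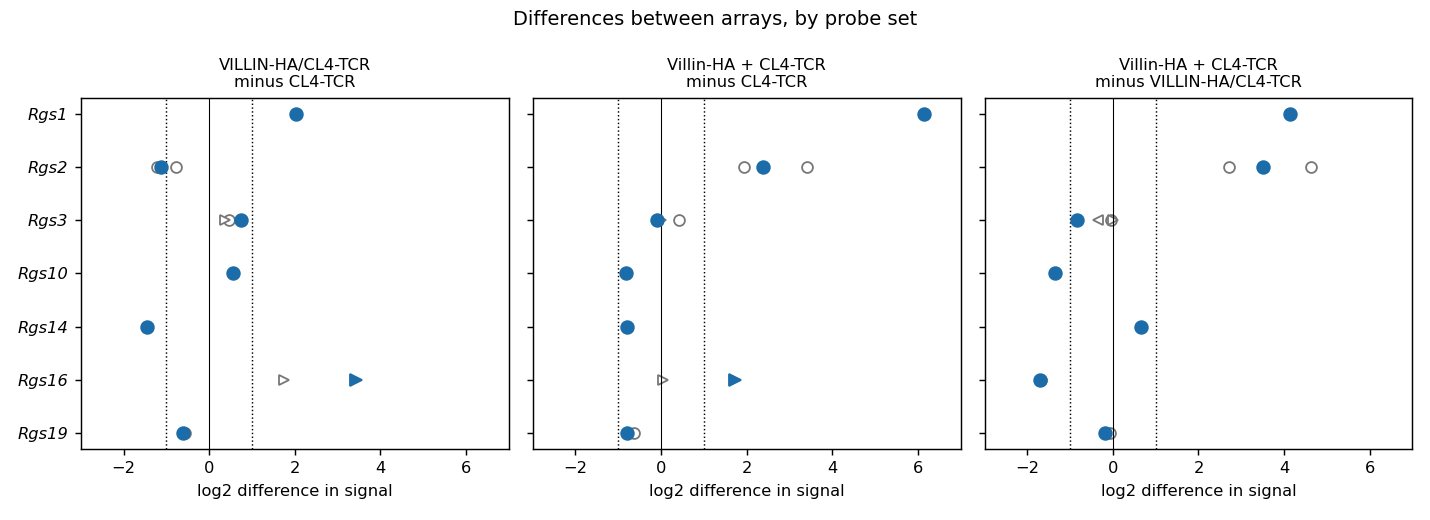
Log2 difference in signal (horizontal axis) for each probe set of the 7 RGS genes in 3 comparisons. Filled symbols are the brightest probe set of a gene, open symbols the others, triangles are lower bounds with 1 value at the floor, and dotted lines mark 2-fold; probe sets below the floor on both arrays are left out. Rgs1 reaches 6.14 in the middle panel, and Rgs2 lies left of zero in the first and right of it in the others.

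Rgs10 and Rgs14 belong to the subfamily that prefers G alpha i. Rgs10, a very small RGS protein found in lymphocytes and microglia, had signals of 3217.9 on CL4-TCR, 4701.4 on VILLIN-HA/CL4-TCR and 1830.2 on Villin-HA + CL4-TCR by its single probe set, 1416882_at. Both HA arrays were within 2-fold of CL4-TCR, on opposite sides of it. Its log2 difference was 0.55 for VILLIN-HA/CL4-TCR and -0.81 for Villin-HA + CL4-TCR against CL4-TCR. Between the HA arrays Rgs10 was 2.57-fold lower on Villin-HA + CL4-TCR. Rgs14, which also binds Ras and Rap proteins and carries a GoLoco motif that holds G alpha i in its GDP form, had signals of 690.2 on CL4-TCR, 252.5 on VILLIN-HA/CL4-TCR and 400.4 on Villin-HA + CL4-TCR by 1419221_a_at. It was highest on CL4-TCR, 2.73-fold lower on VILLIN-HA/CL4-TCR, and short of 2-fold on Villin-HA + CL4-TCR with a log2 difference of -0.79. The HA arrays differed by 0.67 in Rgs14.

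Rgs19, also known as GAIP, acts on G alpha i. Its brighter probe set, 1417786_a_at, read 1421.9 on CL4-TCR, 930 on VILLIN-HA/CL4-TCR and 817.4 on Villin-HA + CL4-TCR, and the other read 914.8, 616.1 and 588.9. Both have the same order, highest on CL4-TCR, and no step reached 2-fold. The log2 differences from CL4-TCR were -0.61 and -0.57 by the probe sets on VILLIN-HA/CL4-TCR and -0.80 and -0.64 on Villin-HA + CL4-TCR.

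Scaling moved the values of the Villin-HA + CL4-TCR array. With each array scaled to the same median, the median log2 difference of genes above the floor on both arrays went from -0.04 to -0.23 against CL4-TCR and from -0.02 to -0.26 against VILLIN-HA/CL4-TCR. The share of higher genes among those counted went from 55.6% to 38.2% and from 59.3% to 32.7%. Under that scaling Rgs10 and Rgs19 were lower on Villin-HA + CL4-TCR than on CL4-TCR, at -1.02 and -1.005, and Rgs3 was lower than on VILLIN-HA/CL4-TCR, at -1.10. Rgs1, Rgs2 and Rgs16 kept their direction and their counts in all 3 comparisons under that scaling and under quantile normalization.

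**Figure D3:**
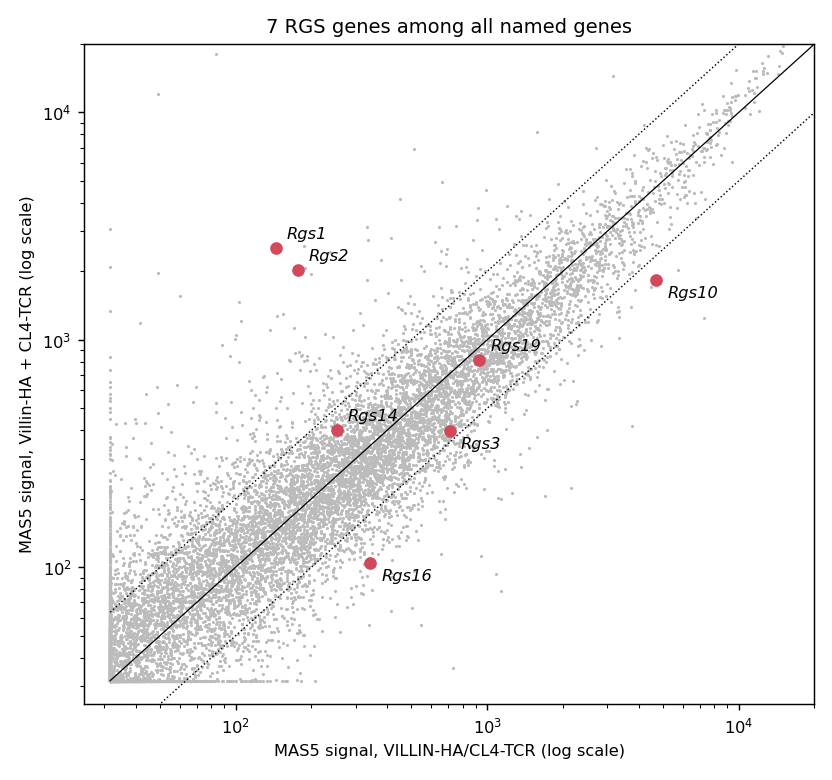
Signal on the Villin-HA + CL4-TCR array (vertical, log axis) against that on the VILLIN-HA/CL4-TCR array (horizontal, log axis) for all named genes, grey, with the 7 RGS genes in red; values below the floor of 31.7 are drawn at it. The solid line marks equal signal and the dotted lines 2-fold: Rgs1 and Rgs2 lie above the band, Rgs10 and Rgs16 below it, and Rgs3, Rgs14 and Rgs19 inside it.

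The genes with the most similar pattern were found by the larger of the gaps in the log2 differences of the HA arrays from CL4-TCR, over 3 arrays. For Rgs1, among 9014 genes above the floor on all arrays, the nearest was Dusp1, a MAP kinase phosphatase gene of the immediate-early class, with a gap of 0.71 and signals of 60.1, 187 and 2596.4. Lgals1 (gap 1.04) and Anxa2 (1.73) followed, so none of these candidates matched Rgs1 closely. Genes below the floor on any array were not candidates. Rgs1 itself lay just above the floor on CL4-TCR, so its gaps can change with the floor. For Rgs2 the nearest was Klf6, a zinc finger factor that is also induced early, with a gap of 0.18 and signals of 255.6, 103.3 and 1471.1, followed by Dhx58 (0.33) and Aif1l (0.34).

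For Rgs16, among 9683 genes above the floor on the HA arrays, the nearest were Lyz2 (0.16), Trpm1 (0.19) and Csf1r (0.20). Rgs16 lay below the floor on CL4-TCR, so its differences from that array are lower bounds. These gaps therefore depend on the floor, and no particular match is read from them. Lyz2, encoding lysozyme, and Csf1r, the receptor of macrophage growth factor, are myeloid genes. Lyz2 had signals of 84.5 on CL4-TCR, 817.3 on VILLIN-HA/CL4-TCR and 312.2 on Villin-HA + CL4-TCR, and Csf1r had 40.9, 384.1 and 125. Of 13 myeloid and dendritic cell markers, 5, 8 and 7 lay above the floor on the arrays in the same order, with summed signals of 306.5, 1602 and 1238.1. Cd14, Itgam, Flt3, Xcr1 and Siglech lay below the floor on both CL4-TCR and VILLIN-HA/CL4-TCR. C1qb, a complement gene of macrophages, also had its highest signal on VILLIN-HA/CL4-TCR, with 18.1, 148.6 and 44.6. Other genes of the list were highest on Villin-HA + CL4-TCR: Itgax, the integrin CD11c, had 38.9, 43.5 and 430.7, Cd68 had 39.5, 49.1 and 106.3, and Adgre1, named after its values were seen, had 33.3, 40.1 and 64.6. The other probe sets of Csf1r read 38.7, 127.9 and 120.2, and 46.3, 58.2 and 88.5, so 1 was nearly level between the HA arrays and 1 was highest on Villin-HA + CL4-TCR. The part of these cells in the Rgs16 signal was not tested.

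Of 10 T cell activation genes, 10 were higher on VILLIN-HA/CL4-TCR and 8 on Villin-HA + CL4-TCR than on CL4-TCR. The list was chosen with earlier results of these data known, and 7.43% and 11.9% of all measured genes were higher in these comparisons. Tnfrsf9, the costimulatory receptor 4-1BB, had signals of 53.1, 853.4 and 342.1, and Egr2, a factor induced by T cell receptor signals, had 217.3, 1693.1 and 206.1, both highest on VILLIN-HA/CL4-TCR. Between the HA arrays 3 genes of this list were lower and 3 higher on Villin-HA + CL4-TCR, the latter being Fos, Icos and Il2ra. Of all measured genes, 6.14% were lower and 8.95% higher there. With arrays scaled to the same median, 4 of the list were lower and 2 higher, and Icos was no longer counted. Fos, an AP-1 subunit, had 64.8, 987.5 and 4555.4, the costimulatory receptor gene Icos had 260.8, 2013.4 and 4088.4, and Il2ra, the interleukin-2 receptor alpha chain, had 12.3, 114.2 and 294.4. The proliferation marker Mki67 had 22.8, 2197.4 and 3191.2, and Nr4a1, induced by T cell receptor signals, had 106.8, 1607.7 and 1104.8.

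Some markers of other cells had higher sums on Villin-HA + CL4-TCR, where Rgs1 and Rgs2 were highest. The 7 neutrophil and mast cell markers summed to 78.5 on CL4-TCR, 118.5 on VILLIN-HA/CL4-TCR and 1037.3 on Villin-HA + CL4-TCR. Only S100a8 (9.5, 12.9 and 738.7) and S100a9 (14.6, 26.3 and 258.8) lay above the floor there, while Csf3r and Cxcr2 stayed below it. The 5 platelet markers summed to 168.8, 134.6 and 470.8, and 9 markers of stroma and endothelium to 248.5, 225.2 and 918.6, with 2, 2 and 6 above the floor. The platelet gene Pf4 had 32.2, 37.2 and 203.4, Itga2b had 53.4, 33.5 and 124.2, and Ppbp had 8.3, 37.7 and 65.1. The other platelet markers did not follow: Gp1bb had 47.5, 21.8 and 53.7, and Gp9 stayed below the floor. Of the collagen genes, Col1a2 had 36.4, 25.3 and 369.9, Col3a1 had 0.9, 7.7 and 181.1, and Col1a1 had 28.5, 17.5 and 86.1. From the same list, Acta2 had 107.8, 86.9 and 126, and Pdgfrb and Cdh5 stayed below the floor. The 8 B cell markers, of interest because B cells express Rgs1 and Rgs2, summed to 389, 695.3 and 479.9, with Cd79a below the floor throughout. Of these, Ms4a1 (55.8, 147.2 and 52.5) and Cd22 (72.7, 178.9 and 55.6) were highest on VILLIN-HA/CL4-TCR, and Cd79b (110.5, 199.1 and 233.1) on Villin-HA + CL4-TCR. Foxp3, from the CD4 T cell list, had 29.6, 38.2 and 86.4, while Cd4 and Cd40lg of that list stayed below the floor. Among the 3 NK cell markers with a probe set, only Klrk1, also made by activated CD8 T cells, lay above the floor on Villin-HA + CL4-TCR, with 14.4, 33.3 and 425.1. The 6 epithelial markers summed to 171.5, 96.9 and 176.6, with Vil1 below the floor. The part of these cell types in the RGS values was not tested.

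Of 14 further RGS genes, 12 have a probe set, and 6 of these had their brightest one below the floor on all arrays (Rgs4, Rgs6, Rgs7, Rgs8, Rgs13 and Rgs18). Rgs11 was the 1 gene counted, with 121.3 on CL4-TCR, 27.8 on VILLIN-HA/CL4-TCR and 32.9 on Villin-HA + CL4-TCR, at least 3.83-fold and 3.69-fold lower. With the higher floor of 68.6 it was no longer counted. Against CL4-TCR, 4 genes of this list were measured on VILLIN-HA/CL4-TCR and 6 on Villin-HA + CL4-TCR. Of all measured genes, 7.43% were higher and 6.63% lower in the first comparison, and 11.9% and 9.53% in the second. Rgs9 had 83.9, 71.5 and 71.3, Rgs20 had 42.2, 56.4 and 27.4, and Rgs12 had 38.9, 16.1 and 57.3. Rgs5, a gene of pericytes, and Rgs17 were above the floor on Villin-HA + CL4-TCR alone, at 40.2 and 34.

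Among the alpha subunits, those of the G alpha i and G alpha q classes are the targets of the RGS members above. All 13 in the list have a probe set. In the 3 comparisons, 7.43%, 11.9% and 8.95% of all measured genes were higher, and 6.63%, 9.53% and 6.14% lower. Of the alpha subunits 9, 9 and 10 were measured, and none was counted by its brightest probe set, with nothing read from so few genes. With the median of all probe sets, 1 was higher on Villin-HA + CL4-TCR than on CL4-TCR. With 16 added to each value in place of the floor, 1 was higher in each comparison with CL4-TCR. Without probe sets ending in _x_at, _s_at or _a_at, 1 was lower on Villin-HA + CL4-TCR than on CL4-TCR. Gnai2, the main inhibitory alpha subunit of lymphocytes, had signals of 4065.3, 4492.3 and 2850.9, and Gnai3 had 1989, 2517.6 and 2668.3. Gnai1 was below the floor on all arrays. Gnas, the alpha subunit that activates adenylyl cyclase, had 4398.7, 4548.8 and 3651 by its brightest probe set, while another had 111.1, 106.2 and 31. The probe sets of Gna13 disagreed: the brightest had a log2 difference of 0.49 on Villin-HA + CL4-TCR from the CL4-TCR array, while another had 3.29.

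Among beta and gamma subunits, 10 of 14 genes were measured for Villin-HA + CL4-TCR minus CL4-TCR, of which 3 were higher and 1 lower. Of all measured genes, 11.9% were higher and 9.53% lower there. Gng2 was 5.64-fold higher, with signals of 45.9, 50.9 and 258.8, Gnb5, the partner of the larger RGS proteins, 3.25-fold and Gnb2 2.12-fold. Gnb2 fell short of 2-fold with arrays scaled to the same median. One probe set of Gng2 stayed near the floor, with 31.9 on CL4-TCR and 29.7 on Villin-HA + CL4-TCR. Gng4 was at least 2.04-fold lower on both HA arrays, with 64.7 on CL4-TCR, and neither it nor Gnb5, with 32 on CL4-TCR, was counted with the higher floor.

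The receptors went different ways on the HA arrays. Of 22 measured in each comparison with CL4-TCR, among 31 with a probe set, 3 were higher and 6 lower on VILLIN-HA/CL4-TCR, and 8 were higher and 2 lower on Villin-HA + CL4-TCR (6 and 3 with arrays scaled to the same median). With the higher floor 1 was higher and 6 lower on VILLIN-HA/CL4-TCR, and 6 higher and 2 lower on Villin-HA + CL4-TCR. Over all measured genes, with the main floor, 7.43% were higher and 6.63% lower on VILLIN-HA/CL4-TCR, and 11.9% and 9.53% on Villin-HA + CL4-TCR. Cxcr4, whose ligand keeps cells in marrow and lymphoid tissue, had signals of 866.5, 115.2 and 454, and was 7.52-fold lower on VILLIN-HA/CL4-TCR. S1pr1, which guides T cells out of lymph nodes, had 338.4, 102.6 and 162.7, and was lower on both HA arrays, by 3.30-fold on VILLIN-HA/CL4-TCR. Ccr7, the receptor for entry into lymph nodes, had 1839.4, 689.3 and 2500.6, and Gpr183, a receptor of oxysterols, had 485, 177.8 and 882.8. Like Rgs2, both were lowest on VILLIN-HA/CL4-TCR and highest on Villin-HA + CL4-TCR, though their differences between Villin-HA + CL4-TCR and CL4-TCR stayed short of 2-fold.

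Several chemokine receptors were highest on Villin-HA + CL4-TCR. Ccr2 was at least 9.74-fold higher there than on CL4-TCR, with signals of 22, 36.5 and 308.8. Cxcr6 was 4.73-fold higher, with 233.2, 137.1 and 1103.7. Cxcr3 had 784.1, 334.9 and 2753.1, and was 8.22-fold higher on Villin-HA + CL4-TCR than on VILLIN-HA/CL4-TCR. Ccr6 was higher on both HA arrays, by 3.05-fold and 4.65-fold, with 34.5 on CL4-TCR, close to the floor, and with the higher floor it was no longer counted on VILLIN-HA/CL4-TCR. Ccr9, the receptor of gut-homing T cells, had 2975.5, 5404.3 and 5244.7 by its brightest probe set, short of 2-fold, and its 5 probe sets went in both directions, from -1.83 to 1.66 on the log2 scale against CL4-TCR on Villin-HA + CL4-TCR. Ptger2, a prostaglandin E receptor that raises cAMP, was at least 7.14-fold higher on VILLIN-HA/CL4-TCR with 27.2, 226.2 and 87.3, the same order as Rgs16. Lpar6, a receptor of lysophosphatidic acid, was 4.21-fold lower on Villin-HA + CL4-TCR.

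**Figure D4:**
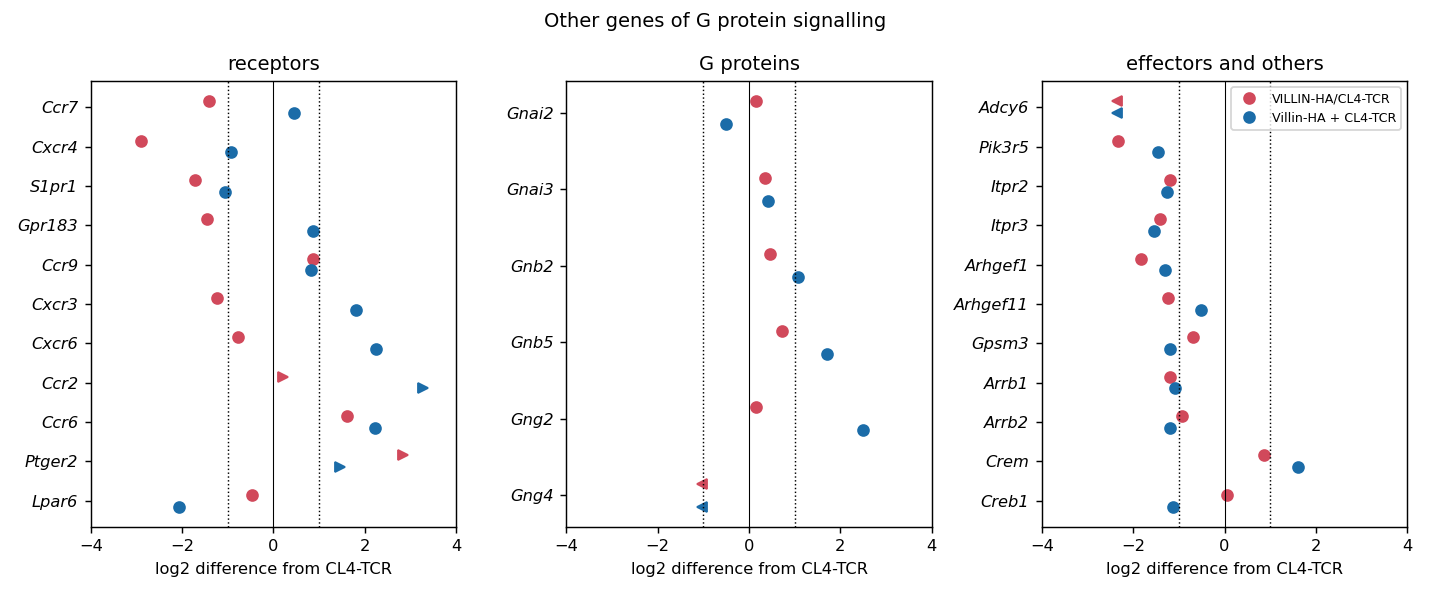
Log2 difference in signal from the CL4-TCR array (horizontal axis) of receptors, G protein subunits and effectors or other genes of the pathway for VILLIN-HA/CL4-TCR (red) and Villin-HA + CL4-TCR (blue). Triangles are lower bounds and dotted lines mark 2-fold. Cxcr4 lies at -2.91 and -0.93, Gnai2 and Gnai3 lie inside the band, and Adcy6, Pik3r5, Itpr2 and Itpr3 lie left of it on both arrays.

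Genes that act beside or after the G proteins were lower where counted, apart from the cAMP arm. Of effectors, 13 of 14 genes were measured on VILLIN-HA/CL4-TCR and 14 on Villin-HA + CL4-TCR, and in both comparisons with CL4-TCR, which share that array, 4 were lower and none higher. Among all measured genes, 6.63% and 9.53% were lower in these comparisons. Pik3r5, the regulatory subunit of the lipid kinase that G beta-gamma activates, had signals of 904.1, 180.2 and 331.5, and the adenylyl cyclase gene Adcy6 had 161.1, 30.8 and 29.9. Itpr3, a calcium channel of the endoplasmic reticulum, had 789.1, 297.5 and 268.5, and Itpr2 had 837.5, 366.5 and 350.1 by the brightest of its probe sets, which disagreed. For effectors above the floor on both arrays the median log2 difference was -0.66 on VILLIN-HA/CL4-TCR and -0.49 on Villin-HA + CL4-TCR, beside -0.05 and -0.04 over all genes.

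Arhgef1, which has an RGS-like domain for G alpha 13 and activates RhoA, had signals of 1558.2, 438 and 630.2, 3.56-fold and 2.47-fold lower. Arhgef11 was 2.35-fold lower on VILLIN-HA/CL4-TCR, and Gpsm3, a GoLoco protein, 2.30-fold lower on Villin-HA + CL4-TCR. Gpsm1, another GoLoco protein, had 247.7, 347.2 and 147.4 and was 2.36-fold lower on Villin-HA + CL4-TCR than on the other HA array. The arrestin genes Arrb1 and Arrb2, whose products switch receptors off, had 197.5, 86.9 and 93.8, and 1446, 758.9 and 633.9. Arrb1 was lower on both HA arrays and Arrb2 on Villin-HA + CL4-TCR. The other probe set of Arhgef1 had log2 differences of -0.77 and -2.84 on the HA arrays, and that of Arrb2 had -2.32 and -0.93. Grk6, a receptor kinase, stayed within 2-fold by its brightest probe set, with 7954.6, 5983 and 5968.5. Its other probe sets did not: 1 had log2 differences of -1.19 and -0.30 on the HA arrays, and 1 had -0.82 and 1.47.

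In the cAMP arm no gene of 12 measured was counted on VILLIN-HA/CL4-TCR, and of 13 measured on Villin-HA + CL4-TCR 2 were higher and 1 lower than on CL4-TCR. Over all measured genes, 7.43% were higher and 6.63% lower on VILLIN-HA/CL4-TCR, and 11.9% and 9.53% on Villin-HA + CL4-TCR. Crem, a cAMP-induced transcription factor gene, was 3.04-fold higher with 48.2, 87.6 and 146.3. The kinase subunit gene Prkar1b was at least 2.26-fold higher, with 11.6, 23.3 and 71.7, and was not counted with the higher floor. Prkar2b, another kinase subunit gene, had 106.1, 141.7 and 59.3. Creb1 was 2.19-fold lower by its brightest probe set, with probe sets in both directions, and with the median of all probe sets no gene of this arm was counted against CL4-TCR on that array. Pde4b, which degrades cAMP, had 1547.4, 901 and 1900.1, the order of arrays seen for Rgs2, and was 2.11-fold higher on Villin-HA + CL4-TCR than on VILLIN-HA/CL4-TCR. With arrays scaled to the same median Pde4b was no longer counted.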

How the data were processed

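The deposited values are MAS5 signal intensities, 1 per probe set and array, per the submitters' processing notes, which name no version. Background settings, detection calls and batches were not used here. Probe sets were named from the platform annotation with symbols updated through Entrez identifiers to the GRCm38.p6 RefSeq table: 34958 had 1 symbol, 932 several and 9211 none, and 34754 identifiers were found. A gene is represented by its probe set with the highest mean signal. No test was possible with 1 array per group, and precision is limited by there being 1 array each. The members, gene lists and rules for named genes were chosen with earlier results of these data known. Named were all members, list genes counted at 2-fold (at most the 4 largest per list and comparison), G alpha i subunits, 5 migration receptors, other RGS genes above the floor, and the 3 genes nearest in pattern to Rgs1, Rgs2 and Rgs16. Gnas, Gna13, Grk6, Cd8a, Gp1bb, Acta2, neighbouring genes and markers below the floor were added after their values were seen. Some list genes were not analysed here. Alternatives were the floor, a pseudocount, scaling, probe set choice and a 3-fold threshold. The counting code was tested on simulated data. Python 3.11.15, pandas 2.3.3 and numpy 2.4.6 were used.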

Additional observations from a re-analysis of the deposited data

Results flagged for a closer look

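Rgs2 was the 1 member counted in opposite directions on the HA arrays against the shared CL4-TCR array, lower on VILLIN-HA/CL4-TCR and higher on Villin-HA + CL4-TCR. The HA arrays differed by 3.51 on the log2 scale in Rgs2. With 1 array each, that difference was not tested.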

How the results depend on the processing

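The number of members counted at 2-fold or more against CL4-TCR was 4 for VILLIN-HA/CL4-TCR and 3 for Villin-HA + CL4-TCR, and between the HA arrays it was 4. With arrays scaled to the same median, the second number was 5 in place of 3, since Rgs10 and Rgs19 passed 2-fold. At 3-fold the first was 2 in place of 4. Without probe sets ending in _x_at, _s_at or _a_at it was also 2, and only 3 members had a probe set left. An alternative chosen after seeing the data left out _x_at and _s_at alone and gave 4, 3 and 4. No brightest probe set of a member has these endings, so that run could not change the member numbers. In the other settings the numbers stayed within 1.5 times. No member counted in the main setting changed direction in any alternative run. Of 135 member differences under alternatives, 128 moved by less than the probe set SD. Many of these could not move, because the brightest probe set was kept or the member has a single probe set. Under the higher floor, differences with both values above it could not move either. The 7 others concern Rgs1, Rgs16 and Rgs3 under the higher floor or the median of probe sets. Rgs1 and Rgs16 lay below the higher floor of 68.6 on CL4-TCR, so it enters their differences directly. No other cause of these moves was tested. No list gene counted in the main setting changed sign under another scaling. No paired analysis was possible because each group has 1 array. Over all genes, between the HA arrays 1081 were higher and 742 lower on Villin-HA + CL4-TCR, against 665 and 1370 with arrays scaled to the same median, 634 higher with the higher floor and 458 lower with the median of probe sets. Against CL4-TCR that array had 1454 higher, or 943 with the higher floor. At 3-fold the higher and lower genes were 371 and 183, 620 and 356, and 343 and 168, in place of 837 and 746, 1454 and 1162, and 1081 and 742. Signals near the floor, as for Rgs1 and Rgs16 on CL4-TCR, limit their folds.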
